A study of Mus musculus with 2 samples.

Results

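StAR, the steroidogenic acute regulatory protein, and 9 other genes linked to the movement of cholesterol into mitochondria were described in the mouse adrenal gland. They were chosen by name: Star, its START domain relatives Stard3, Stard5 and Stard10, the translocator protein genes Tspo and Tspo2, the TSPO-binding protein gene Acbd3, the voltage-dependent anion channel genes Vdac1 and Vdac2, and the inner membrane ATPase gene Atad3a. All 10 identifiers were found among the 55536 annotated genes, 22014 of which are nuclear protein-coding genes other than Lars2. The tissue was the whole adrenal gland of female B6CASTF1/J mice, an F1 hybrid with a CAST parent, aged 25 days. The total RNA of 1 group was sequenced as 2 libraries, called replicate 1 and replicate 2, so levels could be described and the libraries compared with each other. The labels conflict on whether the libraries came from separate animals, so every SD (n = 2) may be technical and every test compares these libraries only.

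Steroid hormone synthesis starts when cholesterol reaches the inner mitochondrial membrane, where CYP11A1 cleaves its side chain. The inner membrane is poor in cholesterol, and its delivery from the outer membrane is the step that trophic hormone acutely controls. StAR is made as a precursor with a mitochondrial targeting sequence, acts at the outer membrane through its START lipid-binding domain, and is short-lived. In the adrenal cortex ACTH raises its transcription and its phosphorylation through cyclic AMP and protein kinase A. Patients who lack StAR have lipoid congenital adrenal hyperplasia, in which the cortex fills with cholesterol. TSPO, ACBD3, the VDAC channels and ATAD3A have been placed in a complex with StAR at the contact between both membranes. For TSPO the need for it in steroid synthesis is disputed.

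Expected counts, the estimated reads per gene, summed to 19366343 in replicate 1 and 33728646 in replicate 2. Nuclear coding genes other than Lars2 held 36.3% and 66.1% of them, and Gm42418, annotated as a long noncoding RNA, took 24.3% of the counts of annotated genes in replicate 1 and 0.61% in replicate 2. Levels are given in TPM (a value per transcript length, scaled to a sum of 1000000) and in coding TPM, which is TPM rescaled to that sum over those coding genes. All 6 markers of steroidogenic cortex and all 6 of chromaffin cells, the catecholamine cells of the medulla, were at 1 TPM or more in both libraries. So were 4 of 4 endothelial, 6 of 7 macrophage and 5 of 5 adipocyte markers. Hepatocyte markers separated the libraries: 8 of 8 reached 1 TPM in replicate 1 and 1 of 8 (Alb) in replicate 2, with a summed 989 and 11.4 coding TPM. The part of this liver-type RNA in the values below was not tested.

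Star was the most abundant of the 10 genes by far. Its 107163 and 299312 expected counts corresponded to 2476 TPM in replicate 1 and 4508 TPM in replicate 2, or 3492 ± 1437 TPM (SD, n = 2). On the coding scale the values were 11971 and 13326 coding TPM, a level of 12648 ± 958 (SD, n = 2). It ranked in place 2 of 22014 coding genes in both libraries, behind Hsd3b1, the enzyme that makes progesterone from pregnenolone. Star took 1.52% and 1.34% of the coding counts. Of the TPM of all 10 genes together it took 90.8% and 91.3%. In this bulk tissue, more cortical cells and more Star RNA per cortical cell cannot be told apart.

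Star (ENSMUSG00000031574.8) lies on the plus strand at chr8:25806555-25815982 (mm10), and the annotation holds 2 transcripts of it. Star-201 is the principal transcript, with 4046 bases in 7 exons and the whole coding sequence of 852 bases without its stop codon. Star-202 has 633 bases in 6 exons, starts 1919 bases upstream and is marked as incomplete at its 3′ end. Of its bases, 566 lie in Star-201 and 67 do not, and all 471 of its coding bases are shared. The coding sequence of both begins in the same exon, at chr8:25808569-25808632, with the stretch that encodes the mitochondrial targeting sequence's start. Star-202 breaks off 9 bases into the fifth coding exon of Star-201, at chr8:25811213-25811397, so that the model holds no coding sequence for the rest of the START domain. The level of Star turns on how reads were split between these transcripts. The stretches below show where the coding sequence of both begins and where Star-202 breaks off. Capitals mark the start codon in the first and the 9 bases shared by both transcripts in the second.
Star coding start: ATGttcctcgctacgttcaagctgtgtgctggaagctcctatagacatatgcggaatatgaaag
Star-201 exon where Star-202 ends: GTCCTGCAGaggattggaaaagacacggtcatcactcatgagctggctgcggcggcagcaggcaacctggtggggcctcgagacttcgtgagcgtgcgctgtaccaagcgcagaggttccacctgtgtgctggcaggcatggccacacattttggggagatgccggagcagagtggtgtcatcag

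**Figure D1:**
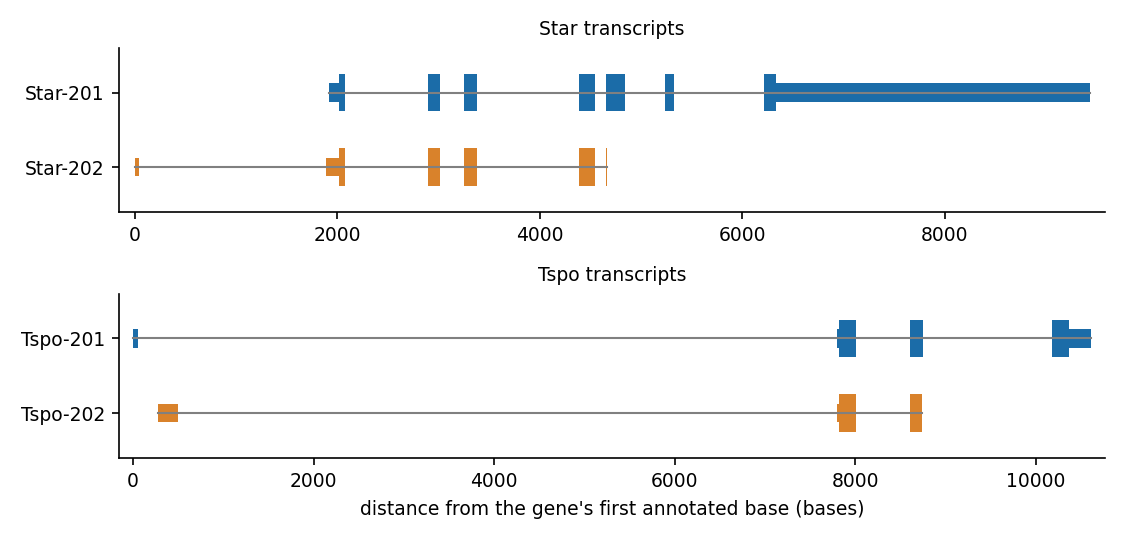
Exons of the annotated transcripts of Star (above) and Tspo (below), with the distance in bases from the gene's first annotated base on the horizontal axis. Tall boxes are coding, low boxes are untranslated and lines are introns. Star-202 and Tspo-202 share their coding exons with the full-length transcript and stop before its end.

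The deposited tables split the Star reads between these transcripts in different ways. In the first transcript table, from the same quantification as the gene table, Star-202 received 8274 reads in replicate 1 (posterior SD 134) and 40713 in replicate 2 (posterior SD 167). These are 7.72% and 13.6% of the gene's reads. Because the model is short, they made up 38.2% and 53.8% of its TPM. The second transcript table, from a quantification made directly from the sequence files, gave Star-202 11.2% and 11.4% of the reads and 58.2% and 61.6% of the TPM. Its share was thus higher in replicate 2 by both tables, by a wide margin in the first and a narrow one in the second. The posterior SD covers the split within a library and not the choice of annotated models.

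The level of Star in TPM rests on that split. With all its reads placed on Star-201 it came to 1658 and 2412 TPM, or 8016 and 7129 coding TPM, and ranked in place 3 and 4 of the coding genes. The deposited TPM was 1.49 times this value in replicate 1 and 1.87 times in replicate 2. Under the second quantification Star had 14371 and 14297 coding TPM and ranked in place 1 and 2. By each of these ways of counting Star was among the 4 most abundant of the 22014 coding genes in both libraries.

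**Figure D2:**
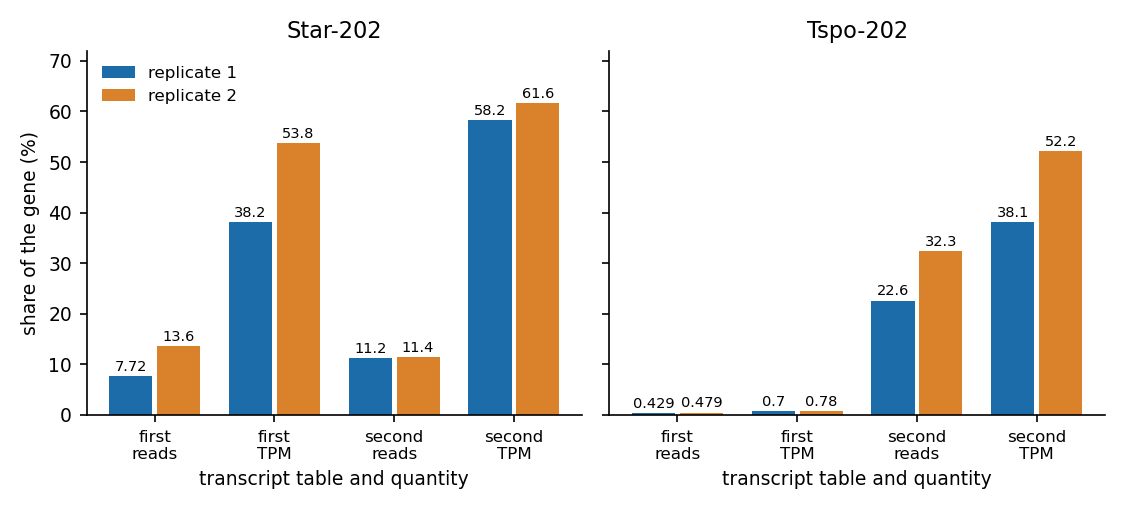
Share of the gene (percent, vertical axis) on the incomplete models Star-202 and Tspo-202, by transcript table (first or second), quantity (reads or TPM) and library. Star-202 holds 7.72% to 13.6% of reads and 38.2% to 61.6% of TPM, and Tspo-202 is below 1% in the first table and at 38.1% and 52.2% of TPM in the second.

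The direction of the difference between the libraries in Star also rests on it. From counts scaled by TMM, a scaling that sets the bulk of genes equal, the log2 ratio of replicate 2 over replicate 1 was -0.20, with a 95% counting interval from -0.21 to -0.19. On the coding TPM scale the ratio was 0.15, so replicate 2 was the higher one. Under the second quantification it was -0.01, and with all reads on Star-201 it was -0.17. Reads of Star were thus fewer in replicate 2 relative to other genes, while the first transcript table put more of them on the short model there, where a read adds more TPM. Over the 6 markers of steroidogenic cortex the median log2 ratio of counts was 0.13, with 3 called higher in replicate 2 and none lower, and their summed level was 32775 and 36956 coding TPM. Cyp11a1, whose product cleaves the delivered cholesterol, had a log2 ratio of 0.01, from 46105 and 149059 counts. All 5 adipocyte markers were called lower in replicate 2, with a summed 3648 and 2761 coding TPM. Over all genes tested, 17.6% were called higher in replicate 2 and 15.9% lower. The part of other cell types in the Star ratio was not tested.

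The START domain relatives were expressed at levels far below Star. Stard3 (chr11:98358368-98381112, plus strand) encodes an endosomal membrane protein that moves cholesterol at contacts with the endoplasmic reticulum. It had 131 and 422 counts, or 5.02 and 7.76 TPM (24.3 and 22.9 coding TPM), and a log2 ratio of 0.00 with an interval from -0.28 to 0.30. Stard5 (chr7:83631959-83653127, plus strand) encodes a soluble sterol and bile acid binding protein. It had 273 and 707 counts, or 8.81 and 12.6 TPM (42.6 and 37.2 coding TPM). Its log2 ratio was -0.31, with an interval from -0.51 to -0.10 (exact binomial test, Benjamini-Hochberg adjusted p = 0.012). Stard5 was thus lower in replicate 2 beyond counting error, and Stard3 was within it. Their principal transcripts led in both tables, with 59.3% and 68.9% of TPM on Stard3-201 and 68.3% and 64.9% on Stard5-201 in the first. The rest lay mainly on models without a coding sequence: Stard3-203, Stard3-204 and Stard3-206 at up to 14.4%, and the retained-intron models Stard5-204 and Stard5-205 at up to 26.5%.

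Stard10 (chr7:101317086-101346626, plus strand) differs in its cargo, since its product carries phosphatidylcholine and phosphatidylethanolamine rather than cholesterol and is best known from liver. It had 95 and 249 counts, or 5.24 and 6.51 TPM (25.3 and 19.2 coding TPM). The log2 ratio was -0.29, with an interval from -0.64 to 0.06 (exact binomial test, adjusted p = 0.20). Counts of the second quantification gave -0.30. Only its coding TPM had the other sign, with 30.9 and 41.5 coding TPM and a log2 ratio of 0.42. Of its 11 annotated transcripts none led throughout. Stard10-211 held the largest share of TPM in replicate 1 (30.8%) and Stard10-201 in replicate 2 (51.1%) by the first table. By the second table these were Stard10-201 (25.3%) and the incomplete 430-base model Stard10-206 (48.7%). Stard10-202, Stard10-203, Stard10-205, Stard10-207 and Stard10-210 also passed 10% in at least 1 table and library, the highest being Stard10-207 with 22.1% in replicate 1 and 0% in replicate 2 of the first table. The ratio of Stard10 was thus below 0 by counts of both quantifications and by coding TPM of the first, with an interval that included 0. Hepatocyte markers, as given above, were higher in replicate 1, and their part in Stard10 was not tested.

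Star exceeded Stard3 by 493 times in TPM in replicate 1 and by 581 times in replicate 2. With all reads on the principal transcripts the ratios were 409 and 354. Stard10 stood at 0.595 and 0.517 of Stard5 in TPM. The second quantification gave 0.808 and 1.28, so the order of these genes changed there in replicate 2.

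At the outer membrane, Tspo and Vdac1 were the most abundant members after Star. Tspo (chr15:83563592-83574203, plus strand) encodes the translocator protein, a small membrane protein that binds cholesterol and many drugs. It had 964 and 3440 counts, or 80.0 and 148.7 TPM (386.7 and 439.5 coding TPM), and ranked in place 386 and 313. Its log2 ratio was 0.15, with an interval from 0.05 to 0.26 (exact binomial test, adjusted p = 0.0149). Tspo was the only member called higher in replicate 2 with TMM scaling, and it was higher there in coding TPM of both quantifications too. Star exceeded it by 31.0 and 30.3 times in TPM, and by 20.8 and 16.3 times with all reads on the principal transcripts.

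The transcript tables disagreed on Tspo more than on Star. Tspo-201 has 837 bases and is the principal transcript. Tspo-202 has 551 bases, is marked as incomplete at its 3′ end and shares 337 bases and all 308 of its coding bases with Tspo-201. It held 0.70% and 0.78% of the gene's TPM in the first table and 38.1% and 52.2% in the second. The reads behind these shares were 0.43% and 0.48% in the first table, and 22.6% and 32.3% in the second. The exon where Tspo-202 breaks off, at chr15:83572200-83572338, is shown with the 126 bases that lie in both transcripts in capitals.
Tspo-201 exon where Tspo-202 ends: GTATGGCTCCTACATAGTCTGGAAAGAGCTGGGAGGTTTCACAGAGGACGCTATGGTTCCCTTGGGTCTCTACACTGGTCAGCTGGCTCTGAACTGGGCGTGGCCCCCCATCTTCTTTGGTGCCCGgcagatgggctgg
The second quantification counted 1075 and 3660 reads of Tspo in all, beside 964 and 3440 in the first. Its level went from 386.7 to 523.3 coding TPM in replicate 1 and from 439.5 to 722.5 in replicate 2.

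Tspo2 (chr17:48447907-48451522, minus strand), the paralog that erythroid cells use, was the only member below 1 TPM. It had 1 count in replicate 1, on the noncoding model Tspo2-204, and 0 in replicate 2. Both lie under a floor of 3 counts, which on the principal transcript would equal 0.214 and 0.111 TPM, so no ratio between the libraries was formed. The second quantification placed 0 and 8.16 reads on it, all on the retained-intron model Tspo2-202. Tspo2 was thus not detectable at this depth by its coding models. Of the 10 erythroid markers found, 5 reached 1 TPM in both libraries, namely 4 globin genes and Alas2. Of the other erythroid markers, Epb42 had 1 and 1 counts and Rhag 0 in both.

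Vdac1 and Vdac2 encode porins, the channels that pass metabolites through the outer membrane. Vdac1 (chr11:52360860-52389397, plus strand) had 2554 and 8023 counts, or 86.2 and 142.2 TPM (416.7 and 420.4 coding TPM). Its log2 ratio was -0.03, with an interval from -0.10 to 0.03 (exact binomial test, adjusted p = 0.483). Vdac2 (chr14:21825238-21845879, plus strand) had 888 and 2978 counts, or 35.2 and 67.5 TPM (170.4 and 199.6 coding TPM). Its log2 ratio was 0.06, with an interval from -0.05 to 0.17 (exact binomial test, adjusted p = 0.416). With TMM scaling neither channel gene differed between the libraries beyond counting error. Vdac1 exceeded Vdac2 in each library, by 2.45 and 2.11 times in TPM and by 1.64 and 1.91 times in the second quantification. The split among the 10 Vdac2 transcripts varied, since Vdac2-201 held 69.6% and 53.6% of TPM in the first table and 41.3% and 48.7% in the second. Vdac2-209, which has 956 bases, all of them within Vdac2-201, held 0% in replicate 1 and 31.7% in replicate 2 of the first table. Its 3 incomplete models, Vdac2-206 and Vdac2-207 among them, together held 21.2% and 5.67% in the first table and 52.0% and 35.05% in the second. Vdac1 was simpler, with 90.6% and 89.0% on Vdac1-202 in the first table.

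Acbd3 (chr1:180726043-180754204, plus strand) encodes a Golgi protein with an acyl-CoA-binding domain, which binds TSPO and a regulatory subunit of protein kinase A. It had 529 and 1708 counts, or 9.57 and 16.1 TPM (46.3 and 47.6 coding TPM). The log2 ratio was 0.01, with an interval from -0.13 to 0.15 (exact binomial test, adjusted p = 0.972). Most of its TPM lay on Acbd3-201, with 96.1% and 96.0% in the first table and 94.2% and 93.8% in the second.

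Atad3a (chr4:155740641-155761093, minus strand) encodes an ATPase anchored in the inner membrane, which reaches contacts with the outer one and holds mitochondrial DNA and cholesterol-rich membrane in place. It had 559 and 1562 counts, or 20.7 and 29.97 TPM (100.3 and 88.6 coding TPM). The log2 ratio was -0.20, with an interval from -0.34 to -0.06 (exact binomial test, adjusted p = 0.0184). It was lower in replicate 2 also in coding TPM, and the second quantification left the call (log2 ratio -0.15, exact binomial test, adjusted p = 0.0705). Transcripts of types other than protein-coding, among them the retained-intron models Atad3a-202 (27.8% and 15.3%) and Atad3a-207 (7.98% and 11.1%), held 41.8% and 40.1% of its TPM. Such types also held 40.7% and 31.2% for Stard3 and 30.2% and 34.6% for Stard5. By reads their shares were smaller, at 18.1% and 16.4% for Atad3a, 26.7% and 21.5% for Stard3 and 11.7% and 12.4% for Stard5. The TPM of these 3 genes therefore includes RNA models that encode no full protein, while Acbd3 and Vdac1 stood at 5.03% of TPM or less in the first table and at 6.17% or less in the second.

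**Figure D3:**
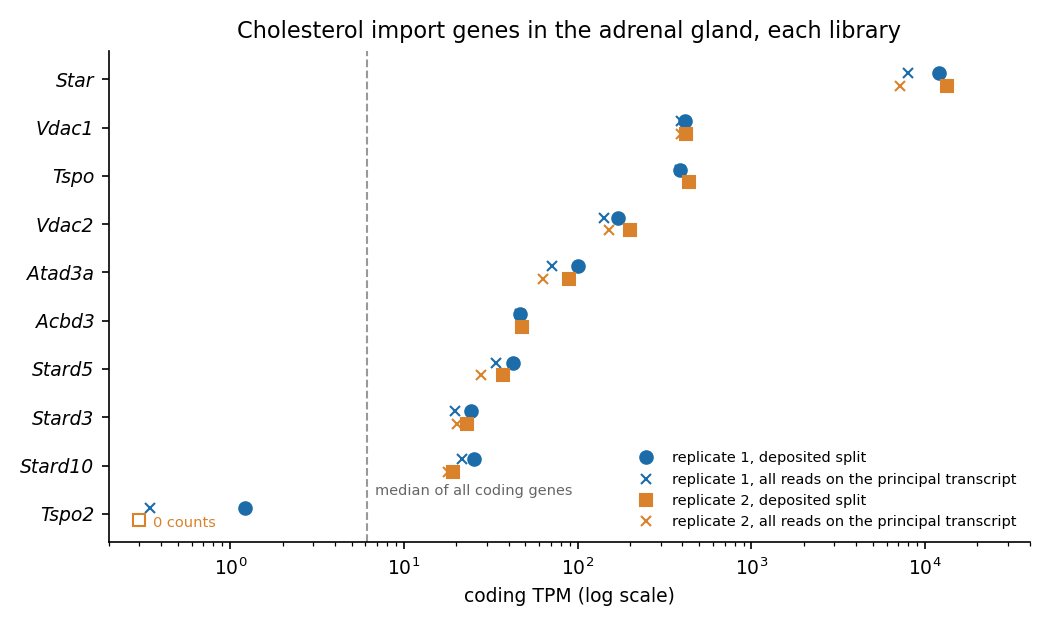
Coding TPM (log scale, horizontal axis) of the 10 genes in replicate 1 (blue) and replicate 2 (orange), with filled symbols for the deposited split of reads among transcripts and crosses for all reads on the principal transcript. Star stands at 11971 and 13326, Vdac1 and Tspo near 400, and Tspo2 below the dashed median of all coding genes. The open square marks 0 counts and has no position on the log scale.

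Of the 10 genes, 9 reached 1 TPM in both libraries, against 51.5% of all 22014 coding genes. Their median was 73.3 and 68.1 coding TPM, beside 6.04 and 6.16 over all coding genes and 35.8 and 37.4 over those detected. In falling order they were Star, Vdac1, Tspo, Vdac2, Atad3a, Acbd3, Stard5, Stard3, Stard10 and Tspo2. Vdac1 and Tspo changed places between the libraries, and so did Stard3 and Stard10, so neither pair differed beyond its spread in the first quantification. In the second, Tspo (523.3 and 722.5 coding TPM) lay above Vdac1 (369.4 and 400.1) in both libraries. Stard10 (30.9 and 41.5) likewise lay above Stard3 (22.8 and 21.7) there. Each other neighbour pair kept its order in both libraries, in the second quantification and with all reads on the principal transcript, and its values did not overlap. Acbd3 and Stard5 were the closest of these pairs, at 1.09 and 1.28 times.

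None of the 9 members with a mean count of at least 100 was 2-fold apart between the libraries. Only 1.33% of the 11542 genes tested were, so this does not set the members apart from other genes. By the exact binomial test with TMM scaling 4 of the 9 were called at an adjusted p under 0.05, and 33.5% of all genes tested were called, 17.6% higher and 15.9% lower in replicate 2. These 4 were Star, Stard5 and Atad3a, lower in replicate 2, and Tspo, higher. The median log2 ratio over the 9 was -0.03, beside 0.03 over all genes tested, and the median size of a ratio over all genes was 0.16. At these counts the intervals were widest for Stard10 and Stard3 and narrowest for Star. Atad3a was called at the same log2 ratio as Star, -0.20, from 559 and 1562 counts. The intervals of Stard3 (-0.28 to 0.30) and Stard10 (-0.64 to 0.06) were too wide to tell a difference of that size from counting error. Scaling by total counts put the median log2 ratio of all genes at 0.92 and scaling by spike-ins at 0.16, and every member's ratio shifted by the same amount. Relative to the median of all genes, the log2 ratio was -0.23 for Star, -0.34 for Stard5, -0.23 for Atad3a and 0.12 for Tspo. By construction these differences are the same under each of these scalings, so their constancy is no test. Scaled by spike-ins, Stard5 and Atad3a left the call, and Vdac1 (log2 ratio 0.10) and Vdac2 (0.19) were called higher in replicate 2.

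**Figure D4:**
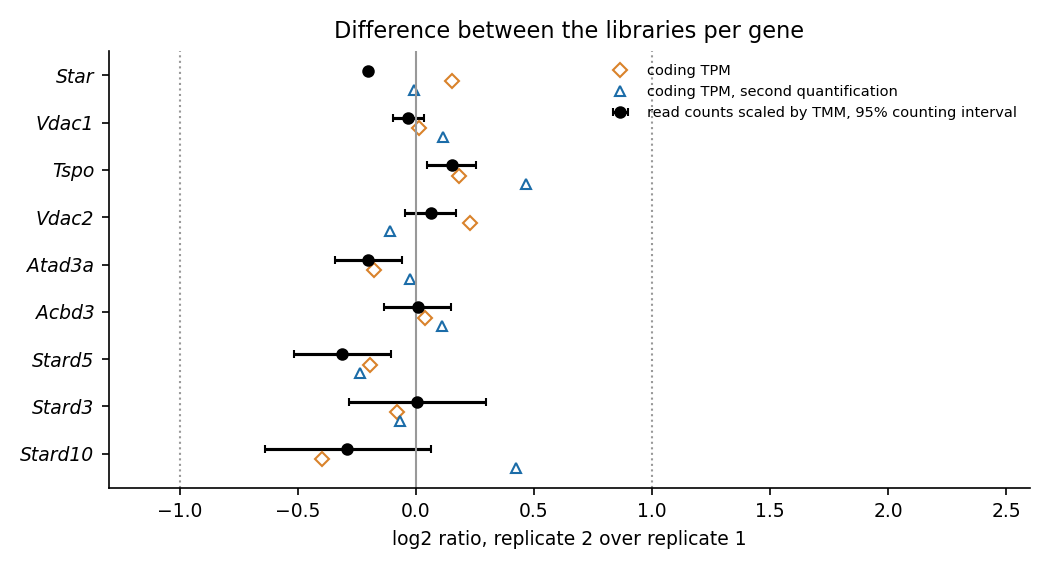
Log2 ratio of replicate 2 over replicate 1 for the 9 genes tested, from counts scaled by TMM (black, with the 95% counting interval), from coding TPM (open diamonds) and from coding TPM of the second quantification (open triangles). Dotted lines mark 2-fold. Star is at -0.20 by counts and 0.15 by coding TPM, and Stard10 is above 0 in coding TPM of the second quantification only.

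The genes nearest to Star in level, by distance in log2 coding TPM over both libraries, were Hsd3b1 (0.45), Akr1c18 (1.06), Adh1 (1.14), Eef1a1 (1.15) and Cyp11a1 (1.27). Hsd3b1 had 14470 and 17018 coding TPM, and Akr1c18, an enzyme that inactivates progesterone, had 7144 and 7928. Star exceeded Cyp11a1 by 1.79 and 1.93 times in TPM and by 2.23 times in both libraries of the second quantification. These ratios rest on the split of reads between the Star transcripts. With all its reads on Star-201, Star had 1658 TPM in replicate 1 and 2412 in replicate 2. The deposited values of Cyp11a1 were 1386 and 2335 TPM, so most of the excess was gone on that count. Each of the 8 other members with counts in both libraries had a neighbour within 0.04, for instance Snrpg for Tspo, Mrpl33 for Vdac1, Nfia for Vdac2 and Spg7, a mitochondrial protease gene, for Atad3a. The other nearest genes were Ccpg1os for Stard3, Prepl for Stard5, Klhl8 for Stard10 and B230307C23Rik for Acbd3. With 2 libraries of 1 tissue this measure describes like levels only.

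Of the 12 other genes listed with the START domain family, Stard3nl among them, 11 reached 1 TPM in both libraries. The median of the 12 was 29.7 and 39.4 coding TPM. The most abundant were Col4a3bp, the ceramide transfer protein (125.8 and 122.3 coding TPM), Stard7, a phosphatidylcholine carrier of mitochondria (111.9 and 114.4), and Dlc1 (82.0 and 82.6). Acot12, a cytosolic acetyl-CoA thioesterase, was lowest with 14 and 10 counts. Each of the 12 stood far below Star in both libraries. In the test, 2 of 10 were called higher in replicate 2 and 1 lower, beside 17.6% and 15.9% of all genes tested, and the median log2 ratio was 0.08. None of those tested was 2-fold apart. Acot12, whose counts were too low for the test, had a log2 ratio of -2.17 with an interval from -3.50 to -0.89.

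The acyl-CoA-binding family and TSPO ligands were led by Dbi, the diazepam-binding inhibitor that is TSPO's natural ligand, with 979.7 and 770.4 coding TPM. This was above Tspo itself, and its log2 ratio of counts was -0.37, from 1479 and 3688 counts, with an interval from -0.45 to -0.28. Acbd4 (93.6 and 125.9 coding TPM) and Eci2 (96.0 and 106.9) followed, and both stood above Acbd3. Acbd7 was lowest with 2 and 2 counts. Of the 7 genes 6 were detected, and of 6 tested 1 was called higher and 1 lower in replicate 2, where 33.5% of all genes were called either way.

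All 17 mitochondrial membrane partners were detected, with a median of 228.6 and 276.3 coding TPM. Cyp11a1 led with 6703 and 6902 coding TPM, followed by its electron donors Fdx1 (2158 and 1579) and Fdxr (1359 and 1371). Hk1, the hexokinase that docks on VDAC, was lowest with 258 and 1095 counts. In the test 3 of 17 were called higher in replicate 2 (17.6% of all genes) and 6 lower (15.9% of all genes), with a median log2 ratio of -0.04. The largest of the 3 leading genes' ratios was that of Fdx1, at -0.50 with an interval from -0.54 to -0.46. Cyp11a1 and Fdxr lay within counting error.

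All 15 kinase, anchor and 14-3-3 partners of StAR were detected, with a median of 229.1 and 203.3 coding TPM. The 14-3-3 genes Ywhae (603.2 and 604.2 coding TPM) and Ywhag (532.8 and 464.3) and Acsl4 (446.2 and 415.2), an acyl-CoA synthetase of arachidonic acid, were highest. Acot2, a mitochondrial acyl-CoA thioesterase, was lowest with 17.4 and 14.8. In the test 1 of 15 was called higher in replicate 2 and 9 lower, against 17.6% and 15.9% over all genes, with a median log2 ratio of -0.15.

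Of 13 genes of cholesterol uptake and endosomal egress, 12 were detected. Scarb1, the receptor that takes up cholesteryl ester from high-density lipoprotein, led with 2638 and 1935 coding TPM. Gramd1b, a carrier of plasma membrane cholesterol, followed with 962.1 and 1112, and Lamp1, a lysosomal membrane protein, with 399.0 and 402.5. Gramd1c was lowest with 18 and 46 counts. Called higher in replicate 2 were 5 of 12, and called lower 2, where all genes gave 17.6% and 15.9%, and Scarb1 was among those called lower, with a log2 ratio of -0.46. Stard3, whose product is an endosomal membrane protein, stood below each of the 12 detected genes of this list in both libraries.

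Of the 17 transcriptional regulators linked to Star, 13 were detected. Nr5a1, which encodes steroidogenic factor 1, led with 652.0 and 767.0 coding TPM, ahead of Cebpb (490.6 and 569.7) and Srebf1 (127.1 and 156.2). Foxl2, an ovarian factor, was lowest with 0 and 1 counts. Of 13 tested, 7 were called higher in replicate 2 and 2 lower, set against 17.6% and 15.9% of all genes, with a median log2 ratio of 0.13. The log2 ratios were 0.20 for Nr5a1, 0.18 for Cebpb and 0.19 for Srebf1, and each interval lay above 0.

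**Figure D5:**
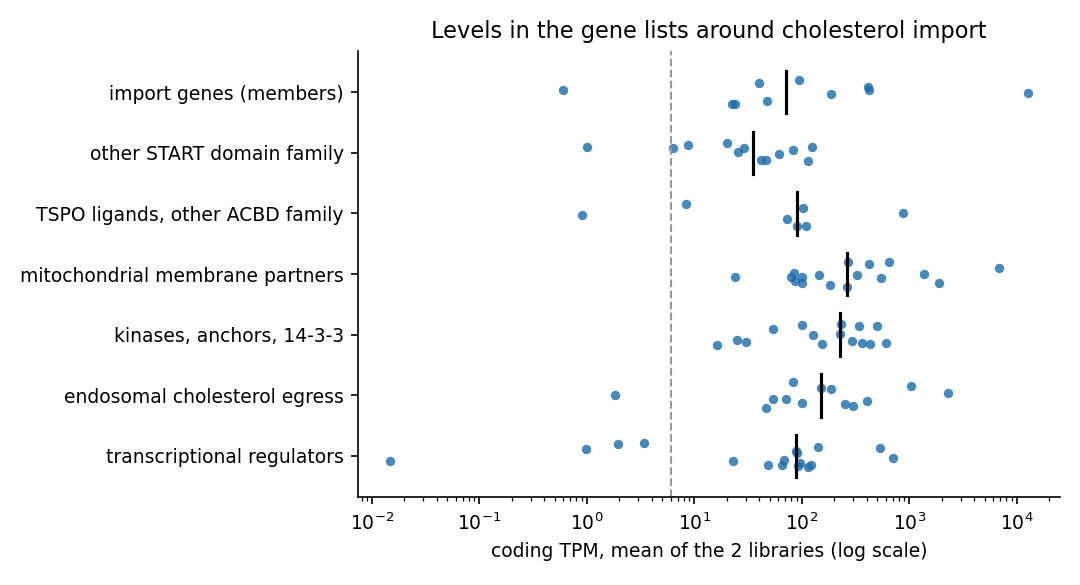
Mean coding TPM of the 2 libraries (log scale, horizontal axis) for each gene of the 7 lists, with vertical bars at list medians and a dashed line at the median of all coding genes. Star is the highest point of any list, ahead of Cyp11a1, and Foxl2 the lowest.

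Some reads of the members could belong to copies or overlapping genes. The words of 30 bases in the principal transcripts of Stard3, Stard10, Tspo, Tspo2 and Acbd3 occurred in no transcript of another gene, for Star 2 of 4017 did, and for Stard5 20 of 2454. For Atad3a 25.1% of words also lay in the processed pseudogene Gm4740, which received 0 counts in both libraries. For Vdac2 18.6% lay in Gm7832, which received 15.5 and 44.1 counts, and for Vdac1 10.8% lay in 11 other genes. Stard5 overlaps Il16 on the opposite strand (53 and 167 counts) and Gm45838 on its own (31 and 81 counts), and how reads in these stretches were divided is not given in the sources used here. Tspo overlaps the opposite-strand gene Mcat by 196 bases and Vdac2 overlaps Comtd1 by 25.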

How the data were processed

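Total RNA of the adrenal gland was measured in 2 libraries of 1 group. Per the notes deposited beside the files, reads were quantified against mm10 with GENCODE M21. Which program did so is not given in the sources used here. Expected counts and TPM per gene and transcript were deposited by the authors, with TPM scaled over all features. Per the file headers, the first transcript table adds the percent of a gene's TPM on each transcript and a posterior SD of its count. The second transcript table holds another quantification, which was summed per gene. Rows other than annotated genes, such as tRNAs and spike-ins, held 0.473% and 0.797% of counts and entered no test. Symbols came from the second table's identifiers for 55450 of 55536 genes, and coordinates and exons from GENCODE M21.

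The members and lists were chosen with earlier results of these data known. Named from each list are its 3 most abundant genes, its lowest and any gene 2-fold apart among those tested. Transcripts of members are named where they led or held 10% of TPM in either table and library.

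Counts were rounded and scaled by TMM with edgeR 4.0.16 in R 4.3.3. As the difference between 2 libraries of 1 group leaves no residual degree of freedom, the 11542 genes whose mean count was 100 or more were compared by a two-sided exact conditional binomial test, adjusted over them by Benjamini and Hochberg's method. Intervals are 95% Clopper-Pearson intervals. Tests and intervals cover counting error only, since each sets replicate 2 against replicate 1 without replication. The reads carry no molecular identifiers. The script was tested on simulated data. Alternatives used DESeq2 1.42.0 size factors, other scalings and minimum counts, the second quantification and each library alone. Placing all reads on the principal transcript, and ratios of coding TPM, were added after the data were seen. Python 3.11.15, numpy 2.4.6, scipy 1.17.1, pandas 2.3.3 and matplotlib 3.10.9 were used.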

Additional observations from a re-analysis of the deposited data

How the results depend on the processing

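Depth limits the weakly expressed genes most: Stard10 and Stard3 rest on 95 and 131 counts in replicate 1. Of the scalings, DESeq2 size factors, coding counts and both lower count minimums left each of the 9 members on its side of the threshold and in its direction where called. Total counts, which follow the noncoding RNA of each library, called 9 of 9 members higher in replicate 2 and 1 of them 2-fold, and reversed Star (log2 ratio 0.69), Stard5 (0.58), Stard10 (0.59), Vdac1 (0.86) and Atad3a (0.69). Spike-in counts reversed Vdac1 (0.10), called Vdac2 (0.19) and left Stard5 (-0.18) and Atad3a (-0.07) short of the threshold, as the second quantification did Atad3a (-0.15). The ratio of coding TPM reversed Star (0.15).

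The level of Star was 3492 TPM as reported, 6513 TPM in the second quantification, 12648 on the coding scale and 2035 TPM with all reads on the principal transcript. The second quantification gave ratios of 645 for Star over Stard3, 23.6 for Star over Tspo, 1.78 for Vdac1 over Vdac2, 1.04 for Stard10 over Stard5 and 2.23 for Star over Cyp11a1. Expected counts, which are not per length, gave 764, 99.1, 2.78, 0.350 and 2.17. All reads on the principal transcript gave 381, 18.5, 2.69 and 0.642 for the first 4, and a Star share of the members' TPM of 86.9%. The Star-202 share was 59.9% of TPM in the second table, and 10.7% of estimated counts in the first table. At 5 TPM 7 of the other genes listed with the START domain family were detected. Leaving out either library changed no count of detected members or list genes by over 1.5 times.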
